A study of Mus musculus with 48 samples.

Results

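Collagens are the triple-helical proteins of the extracellular matrix, and the genes described here are those whose symbol is Col followed by a number, the letter a and a number, one gene per alpha chain. Of the 27179 genes in the count table, 44 had such a symbol, and the 40 with a mean of at least 1 CPM (counts-per-million) over the 48 libraries were taken. They fall into 11 fibrillar, 5 basement membrane, 6 microfibril-forming, 8 fibril-associated, 2 multiplexin, 2 network-forming, 4 membrane-spanning, 1 anchoring fibril and 1 other gene. Col28a1 (1.22 CPM) and Col9a3 (2.05 CPM) lay just inside the limit. Col4a6 (0.912 CPM), Col9a1 (0.781), Col10a1 (0.424) and Col6a4 (0.214) lay outside it and were not analysed further.

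Messenger RNA came from whole hindlimb muscles, taken from male mice of the inbred strain FVB/NJ either late in gestation (E18.5) or as adults. The labels name no genetic change or treatment in any group, and the mice gave all 4 muscles. For the adult age, postnatal day 56 is given in the series design and 3 to 4 months in the growth protocol. Soleus and vastus intermedius are the slow-biased muscles, with more slow myofibres, and gastrocnemius and vastus lateralis the fast-biased ones. The vasti are thigh muscles, and the other pair belongs to the shank. The 8 groups of stage and muscle held 6 libraries each, 1 per animal, except adult vastus intermedius with 5. Animals are lettered A to F within each stage from the tags in the column names, and the letters do not link the stages. The sixth library of adult vastus intermedius, from animal B, was left out because it has an embryonic profile. Collagens took 3.68% of its counts, and its Col4a3 level was 0.193 CPM. Its 5 summed muscle fibre markers reached 27639 CPM against 92513 to 113820 CPM in the other 5. Ranges and overlaps of adult libraries below cover the libraries used. The lack of overlap between stages in vastus intermedius thus follows in part from this choice: the left-out library read 5901 CPM for Col1a1 and 2332 CPM for Col4a1.

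In skeletal muscle, fibrillar collagens I and III form the fibres of the connective tissue around fascicles and myofibres, with collagen V inside and fibril-associated collagens such as XII and XIV on the surface of the fibril. Collagen IV is the sheet-forming collagen of the basement membrane around each myofibre and capillary, where collagen VI microfibrils and the multiplexins XV and XVIII also lie. Collagen IV trimers are built from set combinations of chains, of which alpha1 with alpha2 is the widespread form and alpha3 with alpha4 and alpha5 is best known from kidney glomerulus, lung and synapses.

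The libraries held 14.9 M to 32.4 M counts (M for mega; median 22.9 M over the 47 used). Levels below are CPM scaled by the trimmed mean of M values (TMM), in the order lowest, median and highest library where 3 values are given, and a count of 0 allows up to 3 counts. Changes are log2 fold changes ± standard error (SE), tested over all genes with edgeR's quasi-likelihood F test, and a gene is called where its Benjamini-Hochberg adjusted p is under 0.05. The 20 most abundant genes took 11.3% to 18.52% of the counts at E18.5 and 24.8% to 45.5% in the adult libraries used. Dates in the column names were not shared between the stages, so date and stage cannot be told apart. In whole muscle, fewer cells of a type and less RNA per cell cannot be told apart.

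Some collagen genes are neighbours that share a start region, and the 3 windows below are shown because their genes moved together or apart from the rest of the family. Each is 300 bases of GRCm38.p6 around the annotated start from RefSeq, 5′ to 3′ on the gene's strand, with capitals at matches, on either strand, of the CCAAT box, the GC box (letters GGGCGG) or the TATA box (letters TATAAA).
Col4a1 (chr8:11312777-11313076, minus strand): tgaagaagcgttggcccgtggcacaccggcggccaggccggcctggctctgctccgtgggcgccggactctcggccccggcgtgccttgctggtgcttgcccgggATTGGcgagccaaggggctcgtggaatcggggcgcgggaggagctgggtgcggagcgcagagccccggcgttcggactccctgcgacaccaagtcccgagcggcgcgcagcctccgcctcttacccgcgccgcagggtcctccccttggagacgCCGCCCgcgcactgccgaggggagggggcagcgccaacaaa
Col4a2 (chr8:11312555-11312854, plus strand): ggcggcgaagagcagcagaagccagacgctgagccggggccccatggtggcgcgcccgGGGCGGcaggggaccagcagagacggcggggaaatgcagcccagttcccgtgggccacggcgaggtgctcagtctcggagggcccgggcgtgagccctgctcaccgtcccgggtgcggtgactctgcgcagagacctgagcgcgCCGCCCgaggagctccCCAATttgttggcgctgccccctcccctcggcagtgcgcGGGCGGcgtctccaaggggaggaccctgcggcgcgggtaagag
Col4a4 (chr1:82586800-82587099, minus strand): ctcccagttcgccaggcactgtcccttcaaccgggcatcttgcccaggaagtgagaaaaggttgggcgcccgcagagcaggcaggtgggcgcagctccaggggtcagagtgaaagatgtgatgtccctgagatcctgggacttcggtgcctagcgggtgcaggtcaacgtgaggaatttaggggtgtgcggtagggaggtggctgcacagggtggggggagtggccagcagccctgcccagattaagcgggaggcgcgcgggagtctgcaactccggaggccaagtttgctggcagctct
Col4a1 and Col4a2 lie head to head on chromosome 8 and overlap by 85 bases, and their windows overlap too. Col4a4 and Col4a3 lie head to head on chromosome 1 and overlap by 114 bases, so the Col4a4 window also spans the annotated Col4a3 start at 82586921. The Col4a1 window held 1 CCAAT box and 1 GC box match, the Col4a2 window 1 and 3, and the Col4a4 window none of the 3 motifs. Of 32851 windows in the table, 37.4% held the CCAAT box, 35.7% the GC box and 13.6% the TATA box. Of the 31 collagen genes with a window, 11, 20 and 4 did. Absence of a match says only that these letters are not in this window.

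Collagen RNA took a far smaller part of the adult transcriptome. The 40 genes made up 4.14% ± 0.872 (SD, n = 6) of all counts in E18.5 soleus, 3.44% ± 0.759 (n = 6) in vastus intermedius, 3.98% ± 0.526 (n = 6) in gastrocnemius and 3.60% ± 0.777 (n = 6) in vastus lateralis. In adults the shares were 0.348% ± 0.05003 (n = 6), 0.290% ± 0.0721 (n = 5), 0.198% ± 0.0465 (n = 6) and 0.176% ± 0.0429 (n = 6). The lowest E18.5 library held 2.69% and the highest adult library used held 0.411%, so the stages did not overlap in any muscle.

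From E18.5 to adult, 35 of the 40 genes fell and 2 rose in soleus, where 76% of all 14865 genes tested were called, 39.7% lower and 36.3% higher. In vastus intermedius 36 fell and 2 rose (39.2% and 36.9% of 14884 genes, 76.1% in all). In gastrocnemius 37 fell and 3 rose (44% and 38.2% of 14667 genes, 82.2% in all). In vastus lateralis 33 fell and 4 rose (42.6% and 36.4% of 14523 genes, 79% in all). The median log2 fold change of the collagens was -2.80, -3.01, -3.06 and -3.34 in soleus, vastus intermedius, gastrocnemius and vastus lateralis, against medians of -0.057, -0.041, -0.12 and -0.15 over all genes tested. In all, 33 genes fell in every muscle and Col4a3 and Col4a4 rose in every muscle. The share of all genes that fell or rose in every muscle was not taken. Membership was set by the mean over all libraries of both stages. Genes near or under 1 CPM in adults, such as Col9a2, Col9a3, Col17a1, Col25a1 and Col26a1, met that limit through libraries other than the adult ones used. Col4a3 met it through adult libraries. The direction of these changes follows in part from the rule, and the genes are included in the counts and medians. Col7a1, Col4a5 and Col8a1 were called in both directions in different muscles, and Col24a1 and Col28a1 fell in some muscles only. Scaling by library totals in place of TMM moved the median of all genes to -0.75, -0.80, -1.21 and -1.20.

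**Figure D1:**
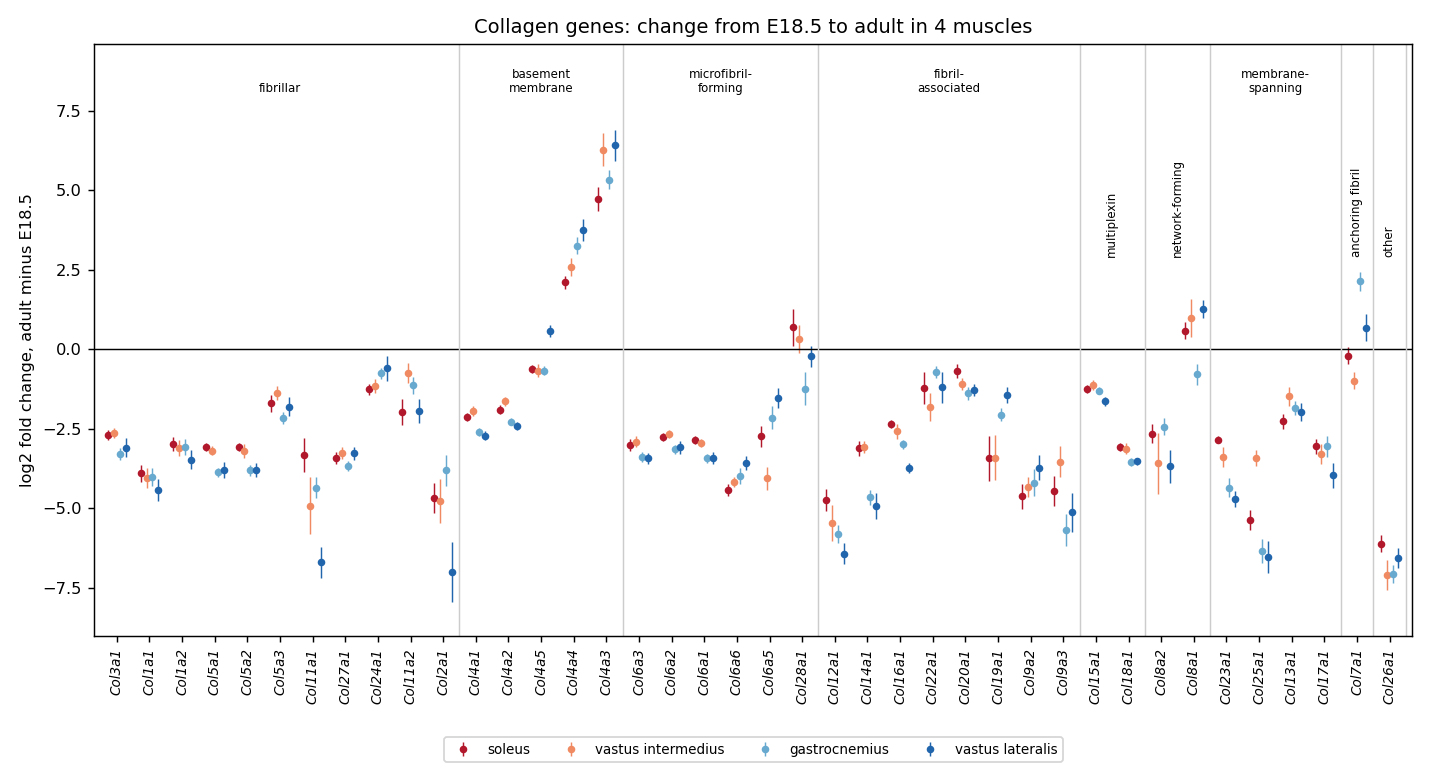
Log2 fold change of each of the 40 collagen genes from E18.5 to adult (y axis; bars are SE), grouped by class along the x axis, with 1 coloured point per muscle. Most points lie well below 0, Col26a1 lies lowest with Col2a1 and Col11a1 in vastus lateralis, and Col4a3 and Col4a4 lie above 0 in all 4 muscles.

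Among markers of other cell types, those of fibroblasts differed by muscle. The summed level of 7 of them (Pdgfra, Dpt, Pi16, Dpp4, Cd34, Ly6a and Thy1) was 316 to 585 CPM in E18.5 and 442 to 671 CPM in adult soleus, and 377 to 493 and then 372 to 488 CPM in vastus intermedius. In gastrocnemius it was 411 to 501 and then 240.4 to 386 CPM, without overlap, and in vastus lateralis 340.5 to 714 and then 205 to 419 CPM. Of the 7 markers, 4 rose and 1 fell in soleus, 4 and 2 in vastus intermedius, 4 and 3 in gastrocnemius and 3 and 2 in vastus lateralis. Tendon markers (Scx, Tnmd, Mkx, Thbs4 and Kera) summed to 152 to 810 CPM at E18.5 and 12.7 to 528 CPM in adults, and 4, 2, 4 and 5 of the 5 fell, with none rising. The 5 muscle fibre markers all rose in all 4 muscles. The part of these shifts in the collagen changes was not tested.

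The fibrillar collagens, which give connective tissue its tensile strength, fell as a class: 11 of 11 in soleus, vastus intermedius and gastrocnemius and 10 of 11 in vastus lateralis. Col1a1, the main chain of collagen I, read 4737, 6517 and 10701 CPM in E18.5 soleus, 3613, 4833 and 8520.4 in vastus intermedius, 4416, 5470.0 and 7436 in gastrocnemius and 3738, 5612 and 8015 in vastus lateralis. In adults it read 267, 429 and 668 in soleus, 186, 332 and 668 in gastrocnemius and 117, 285 and 407 in vastus lateralis, and its 5 vastus intermedius libraries (animals A, C, D, E and F) read 302, 578, 289.8, 231 and 208 CPM. Every adult library used lay below every E18.5 library. The change was -3.90 ± 0.28, -4.03 ± 0.32, -4.00 ± 0.28 and -4.41 ± 0.34 in soleus, vastus intermedius, gastrocnemius and vastus lateralis (largest adjusted p 6.53e-08, edgeR).

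Its partner Col1a2 fell less, at -2.97 ± 0.22, -3.10 ± 0.26, -3.06 ± 0.25 and -3.47 ± 0.30 on the same scale and order (largest adjusted p 1.11e-07, edgeR). Its median CPM was 4122, 3099, 3299 and 3235 at E18.5 and 499.9, 338, 393 and 341 in adults in soleus, vastus intermedius, gastrocnemius and vastus lateralis, the order used for every list of 4 values below. Per kilobase of gene length, Col1a1 stood above Col1a2 in every E18.5 library, with a ratio of 1.72 ± 0.112, 1.74 ± 0.0654, 1.81 ± 0.0433 and 1.81 ± 0.096 (mean ± SD), and near it in adults, with 0.895 ± 0.108, 0.895 ± 0.1097, 0.941 ± 0.0992 and 0.922 ± 0.0876. The highest adult ratio was 1.06 and the lowest E18.5 ratio was 1.58.

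Col3a1, the chain of collagen III that is abundant in distensible tissues such as skin and vessels, read 3895, 5579.6 and 6845 CPM in E18.5 soleus and 767, 851 and 1028 in adult soleus, 4621, 5353 and 7586 and then 948, 1026, 902, 823 and 773 in vastus intermedius, 5055, 5697 and 6720.3 and 346, 616 and 795 in gastrocnemius, and 4243, 5531 and 10259 and 333, 866 and 936 in vastus lateralis. The stages did not overlap, and the falls of -2.69 ± 0.16, -2.62 ± 0.16, -3.29 ± 0.19 and -3.09 ± 0.29 (largest adjusted p 1.26e-07, edgeR) were smaller than those of Col1a1. The per-kilobase ratio of Col3a1 to Col1a1 was 0.728 ± 0.196, 0.909 ± 0.125, 0.895 ± 0.0858 and 0.935 ± 0.115 at E18.5 and 1.77 ± 0.776, 2.59 ± 0.6495, 1.55 ± 0.34 and 2.51 ± 0.518 in adults. By mean level per kilobase, Col1a1 ranked first of the 40 genes in all 4 muscles at E18.5 and Col3a1 in all 4 adult muscles.

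**Figure D2:**
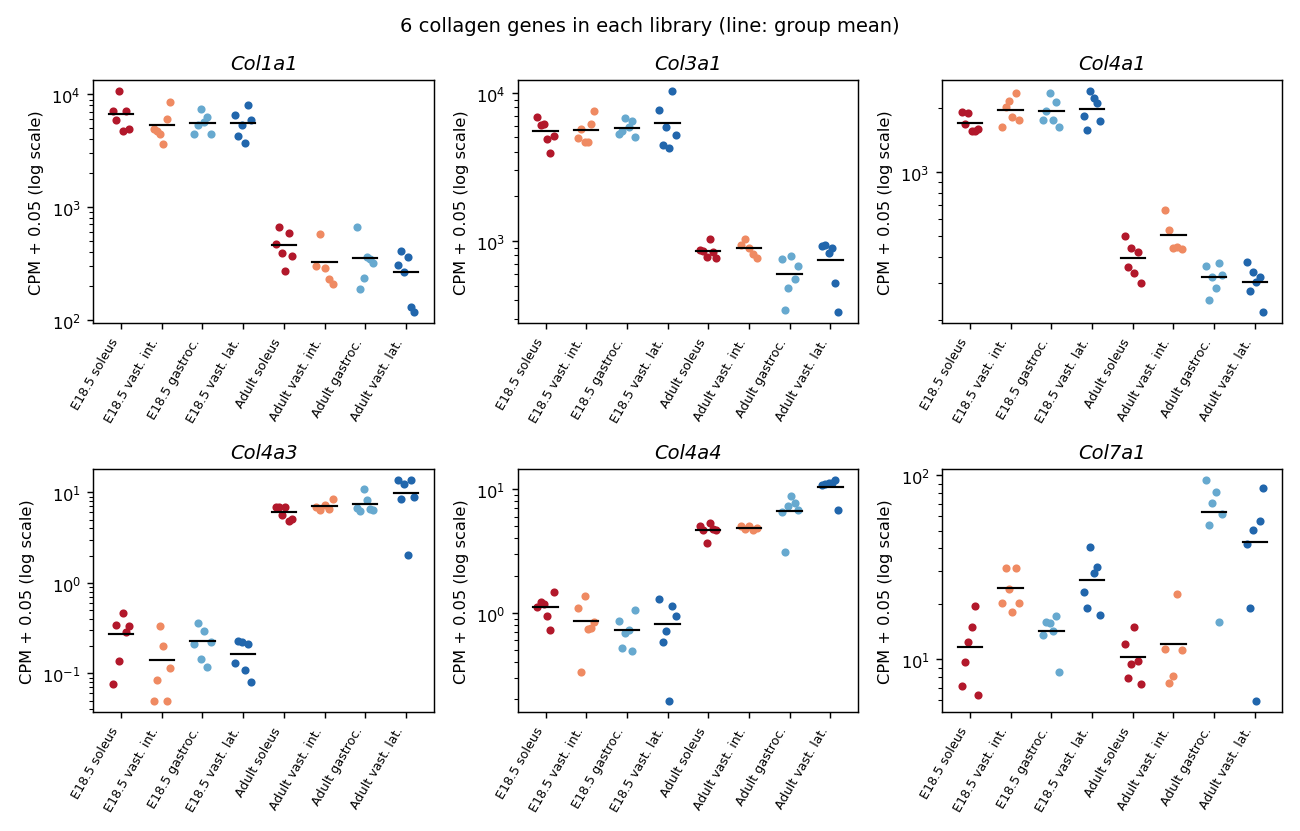
Level in each library (y axis, CPM + 0.05 on a log scale) of Col1a1, Col3a1, Col4a1, Col4a3, Col4a4 and Col7a1 in the 8 groups (x axis); each point is 1 library and each line a group mean. The first 3 genes are lower and Col4a3 and Col4a4 higher in every adult library used than in any E18.5 library of the same muscle. The Col7a1 libraries of the stages overlap in all 4 muscles.

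Collagen V, which sits in the core of collagen I fibrils and limits their width, fell in both main chains. Col5a1 medians were 1322, 1184, 1375 and 1403 CPM at E18.5 and 147, 138, 104 and 109 CPM in adults, a change of -3.07 ± 0.14, -3.18 ± 0.14, -3.86 ± 0.14 and -3.79 ± 0.25 (largest adjusted p 2.35e-09, edgeR). Col5a2 lies 24624 bases from Col3a1 on chromosome 1 with no gene between. Its medians were 879.9, 877, 898 and 902 CPM and then 107, 87.95, 62.5 and 68.1 CPM, and it changed by -3.07 ± 0.13, -3.19 ± 0.21, -3.79 ± 0.17 and -3.80 ± 0.22 (largest adjusted p 1.04e-08, edgeR). Col5a3 fell least of the chains of collagen V, from -1.37 in vastus intermedius to -2.15 in gastrocnemius.

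Col2a1 and Col11a1 are known best as cartilage collagens and lay at low levels in adult muscle. Col11a1 read 101, 157 and 215 CPM in E18.5 vastus lateralis and 0, 1.16 and 3.16 in the adult muscle, and its 5 adult vastus intermedius libraries read 1.17, 21.5, 0.125, 0.729 and 0.669 CPM, so that animal C alone reached 21.5. Its medians were 195, 120, 111 and 157 CPM at E18.5 and 23.6, 0.729, 4.49 and 1.16 CPM in adults. Its change was -3.32 ± 0.54, -4.92 ± 0.89, -4.34 ± 0.34 and -6.69 ± 0.48 (largest adjusted p 0.000204, edgeR). Col2a1 had medians of 38.1, 14.3, 12.3 and 12.4 CPM at E18.5 and 1.66, 0.376, 0.758 and 0.03604 CPM in adults and changed by -4.67 ± 0.48, -4.77 ± 0.70, -3.80 ± 0.49 and -7.00 ± 0.95 (largest adjusted p 2.89e-05, edgeR). The size of the vastus lateralis change is uncertain. Col2a1 had 12 counts in all in that adult group, 9 of them in 1 library, with 3 of 6 libraries at 0. Cartilage markers (6 genes, Acan and Sox9 among them) summed to 10.5 to 67.6 CPM at E18.5 and 1.63 to 35.2 CPM in adults, with Acan and Matn1 at 0 in every adult gastrocnemius library and Matn1 at 0 in all adult groups. Their part in the changes of Col2a1 and Col11a1 was not tested. Col11a2, the second collagen XI chain, had medians of 36.4, 12.9, 17.99 and 13.8 CPM and then 10.9, 7.25, 7.67 and 4.62 CPM, with the stages overlapping except in vastus lateralis. Of the other fibrillar genes, Col27a1 changed by -3.25 to -3.67, Col11a2 by -0.73 to -1.95, and Col24a1 by -0.76 to -1.26 in 3 muscles with a change of -0.60 ± 0.39 in vastus lateralis that did not pass (adjusted p = 0.176, edgeR).

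The fibril-associated collagens, which bind the surface of collagen fibrils, fell in 8 of 8 members in each muscle. Col9a2 and Col9a3 among them met the member limit through libraries other than the adult ones used. Col12a1, found in tendon, fascia and the muscle connective tissue, read 827, 874 and 1241 CPM in E18.5 soleus and 9.77, 36.9 and 61.1 in adult soleus, 836, 1020.0 and 1338 and 11.5, 16.5 and 38.9 in gastrocnemius, and 614, 821 and 942 and 4.05, 8.39 and 16.7 in vastus lateralis. In vastus intermedius it went from 785, 842 and 1353 to 9.16, 61.1, 13.3, 6.998 and 11.6 CPM. Levels did not overlap between stages, and the change was -4.74 ± 0.34, -5.45 ± 0.58, -5.79 ± 0.28 and -6.42 ± 0.32 (largest adjusted p 1.2e-06, edgeR).

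Col14a1, which also decorates fibrils, fell less in the slow-biased muscles (test of the stage difference below): the change was -3.11 ± 0.23, -3.08 ± 0.19, -4.65 ± 0.23 and -4.92 ± 0.41 (largest adjusted p 2.81e-08, edgeR), from medians of 476, 407, 543 and 496 CPM to 54.8, 48.2, 20.8 and 19.2 CPM. The per-kilobase ratio of Col14a1 to Col12a1 was 0.861 ± 0.2095, 0.894 ± 0.102, 0.947 ± 0.07403 and 1.16 ± 0.3002 at E18.5 and 3.74 ± 2.88, 7.35 ± 3.55, 2.31 ± 0.933 and 3.28 ± 1.41 in adults, with a wide spread in adults (1.05 to 11.3). Col16a1 had medians of 116, 89.5, 98.8 and 101 CPM and then 23.4, 14.9, 13.1 and 7.38 CPM and changed by -2.35 ± 0.12, -2.57 ± 0.24, -2.98 ± 0.15 and -3.73 ± 0.16 (largest adjusted p 2.95e-07, edgeR). Col22a1, a marker of the muscle-tendon junction, changed by -1.21 ± 0.50, -1.81 ± 0.45, -0.70 ± 0.18 and -1.20 ± 0.48 (largest adjusted p 0.0396, edgeR), with medians of 74.1, 50.4, 67.7 and 45.2 CPM and then 45.8, 8.81, 37.1 and 18.6 CPM and overlap between the stages. The call was lost in soleus without adult animal A, E or F or E18.5 animal D or E (adjusted p up to 0.12), and in vastus lateralis without adult animal C or F or E18.5 animal D or F (up to 0.062). Col9a2 and Col9a3, partners of collagen II in cartilage, changed by -3.72 to -4.62 and by -3.52 to -5.68, and Col20a1 by -0.68 to -1.38. Col9a3 medians were 2.19, 3.71, 2.47 and 1.53 CPM at E18.5 and 0.0794, 0.319, 0.0309 and 0 CPM in adults, where it was too low to be tested between muscles. Col19a1 changed by -3.42 ± 0.70, -3.40 ± 0.72, -2.06 ± 0.21 and -1.436 ± 0.26 (largest adjusted p 0.000696, edgeR), and its stages overlapped in soleus, vastus intermedius and vastus lateralis.

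The basement membrane collagens split. Col4a1 and Col4a2, the chains of the widespread trimer, fell in every muscle. Col4a1 read 1560.3, 1643 and 1918 CPM in E18.5 soleus and 301, 389.8 and 503 in adult soleus, 1625, 1856 and 2360.4 and 249.8, 325 and 374 in gastrocnemius, 1582, 1978 and 2411 and 219, 311 and 376 in vastus lateralis, and 1634, 1920.3 and 2367 and then 666, 536, 437, 443.6 and 437 in vastus intermedius. All adult libraries used lay below all E18.5 libraries, and the change was -2.13 ± 0.14, -1.93 ± 0.15, -2.61 ± 0.12 and -2.71 ± 0.14 (largest adjusted p 5.06e-08, edgeR). Col4a2, which shares its start region, had medians of 1031, 1117, 1122 and 1135 CPM and then 299.5, 333, 245 and 218 CPM and changed by -1.89 ± 0.13, -1.64 ± 0.14, -2.27 ± 0.11 and -2.42 ± 0.13 (largest adjusted p 1.86e-07, edgeR). Reads in the 85 bases where the genes overlap cannot be assigned without strand. The per-kilobase ratio of Col4a1 to Col4a2 was 1.57 ± 0.0736, 1.68 ± 0.0734, 1.603 ± 0.0349 and 1.69 ± 0.0759 at E18.5 and 1.33 ± 0.0734, 1.36 ± 0.06098, 1.27 ± 0.0758 and 1.37 ± 0.0964 in adults.

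Col4a3 and Col4a4, the other head-to-head pair, rose in every muscle. Col4a3 lay near the detection limit at E18.5, with 16 to 44 counts summed over the 6 libraries of a group, whereas Col4a4 had 142 to 218. Col4a3 read 0.0268, 0.263 and 0.419 CPM in E18.5 soleus and 4.84, 6.19 and 6.86 in adult soleus, 0.0679, 0.167 and 0.312 and 6.19, 6.62 and 10.8 in gastrocnemius, and 0.0299, 0.1202 and 0.179 and 2.01, 10.7 and 13.7 in vastus lateralis. In vastus intermedius it read 0, 0.0497 and 0.287 CPM at E18.5, with 2 of 6 libraries at 0, and 6.87, 6.29, 7.27, 6.49 and 8.48 in adults. No adult library used overlapped an E18.5 library.

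The fitted change of Col4a3 was 4.72 ± 0.37, 6.28 ± 0.51, 5.34 ± 0.29 and 6.41 ± 0.49 (largest adjusted p 8.69e-08, edgeR). Since E18.5 counts were few, the ratio of summed counts per total was also taken: 691 adult against 44 E18.5 counts in soleus gave 16.8 (95% interval 12.4 to 23.4), 600 against 16 in vastus intermedius 48.8 (29.8 to 86.0), 650 against 36 in gastrocnemius 18.99 (13.6 to 27.4) and 983 against 22 in vastus lateralis 46.8 (30.7 to 75.0). These intervals cover counting error only. Col4a4 had medians of 1.11, 0.749, 0.654 and 0.778 CPM at E18.5 and 4.7, 4.796, 6.99 and 11.1 CPM in adults, a change of 2.11 ± 0.20, 2.60 ± 0.28, 3.27 ± 0.27 and 3.75 ± 0.35 (largest adjusted p 1.68e-06, edgeR), and its stages did not overlap in any muscle. Per kilobase, Col4a3 stood at 1.17 ± 0.187, 1.33 ± 0.159, 1.098 ± 0.423 and 0.875 ± 0.387 of Col4a4 in adults. Even so, Col4a3 remained a minor chain, at 0.0120, 0.0112, 0.0182 and 0.0248 of Col4a1 per kilobase in adults.

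Col4a5, the X-linked chain that joins alpha3 and alpha4, behaved differently by muscle. It read 18.1, 22.4 and 31.9 CPM in E18.5 soleus and 13.3, 15.5 and 16.1 in adult soleus, 14.2, 15.1 and 18.9 and 6.001, 10.6 and 11.8 in gastrocnemius, and 9.79, 13.6 and 21.3 and 14.4, 22.4 and 26.4 in vastus lateralis. Its vastus intermedius values were 10.7, 13.6 and 22.8 at E18.5 and 10.3, 10.98, 8.64, 8.38 and 10.04 CPM in adults. It fell in soleus, vastus intermedius and gastrocnemius and was called higher in vastus lateralis (-0.61 ± 0.13, -0.66 ± 0.20, -0.67 ± 0.14 and 0.57 ± 0.19, largest adjusted p 0.0112, edgeR). The vastus lateralis call depends on scaling: with library totals alone Col4a5 was called lower there, by -0.47 (adjusted p = 0.032, edgeR).

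The microfibril-forming collagens anchor cells to the matrix around each myofibre, and loss of collagen VI causes muscular dystrophy. The 3 chains of the classical trimer fell by similar amounts: Col6a1 changed by -2.85 ± 0.13, -2.94 ± 0.13, -3.42 ± 0.15 and -3.41 ± 0.19, Col6a2 by -2.75 ± 0.13, -2.66 ± 0.12, -3.14 ± 0.14 and -3.08 ± 0.21 and Col6a3 by -3.00 ± 0.20, -2.90 ± 0.17, -3.39 ± 0.16 and -3.42 ± 0.17 (largest adjusted p over the 3 genes 2.85e-09, edgeR). Median levels were 1162, 1059.8, 1167 and 1102 and then 162, 124, 113 and 107 CPM for Col6a1. For Col6a2 they were 1229.9, 1137, 1269 and 1224 and then 186, 181, 158 and 149.9 CPM. For Col6a3 they were 1629, 1554, 1629 and 1834 and then 216, 210, 168 and 158 CPM. Stages did not overlap for any of the 3. The Col6a1 to Col6a2 ratio per kilobase, whose genes lie 85161 bases apart on chromosome 10 with 2 others between, was 0.869 ± 0.0169, 0.852 ± 0.0291, 0.8604 ± 0.0219 and 0.856 ± 0.0184 at E18.5 and 0.815 ± 0.0222, 0.698 ± 0.0369, 0.708 ± 0.0547 and 0.694 ± 0.06197 in adults.

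Col6a5 and Col6a6, chains that can take the place of alpha3 and lie 27823 bases apart on chromosome 9, changed by -2.73 ± 0.33, -4.05 ± 0.36, -2.14 ± 0.36 and -1.53 ± 0.31 and -4.42 ± 0.18, -4.17 ± 0.17, -3.98 ± 0.25 and -3.57 ± 0.21 (largest adjusted p 0.000309 and 5.36e-10, edgeR). Col6a6 medians were 188, 306, 312 and 355 CPM at E18.5 and 9.51, 15.8, 21.1 and 31.9 CPM in adults, and those of Col6a5 were 6.36, 15.5, 10.9 and 21.5 and 0.802, 1.103, 2.56 and 7.66 CPM. Col28a1, at most 3.25 CPM, fell in gastrocnemius alone (-1.23 ± 0.52, adjusted p = 0.039, edgeR), a call lost without adult animal B, C, D or F or E18.5 animal A, C or F (adjusted p up to 0.11). Its differences were not called in soleus (0.70 ± 0.59), vastus intermedius (0.32 ± 0.44) or vastus lateralis (-0.22 ± 0.34).

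Both multiplexins, basement membrane proteins that carry sugar chains and release antiangiogenic fragments, fell, but unequally. Col15a1 read 300.3, 333 and 409 CPM in E18.5 soleus and 118, 149 and 183 in adult soleus, and its medians were 333, 348, 287 and 329 CPM and then 149, 142, 125 and 104 CPM, a change of -1.24 ± 0.12, -1.13 ± 0.16, -1.31 ± 0.11 and -1.64 ± 0.14 (largest adjusted p 1.73e-05, edgeR). Col18a1, with medians of 227, 265, 234 and 228 CPM and then 28.1, 31, 20.3 and 19.6 CPM, changed by -3.05 ± 0.13, -3.12 ± 0.17, -3.55 ± 0.13 and -3.51 ± 0.11 (largest adjusted p 2.06e-09, edgeR). The Col15a1 to Col18a1 ratio per kilobase was 1.67 ± 0.335, 1.47 ± 0.294, 1.32 ± 0.128 and 1.58 ± 0.242 at E18.5 and 5.74 ± 0.199, 5.87 ± 0.732, 6.36 ± 1.12 and 5.91 ± 1.62 in adults.

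Col7a1, whose protein forms the anchoring fibrils under epithelia, rose in gastrocnemius and fell in vastus intermedius. It read 8.49, 14.9 and 17.03 CPM in E18.5 and 15.96, 66.1 and 94.5 in adult gastrocnemius, a change of 2.15 ± 0.30 (adjusted p = 6.65e-06, edgeR), with 1 adult library, of animal E, inside the E18.5 range. In vastus intermedius it read 18.1, 22.2 and 31.4 and then 11.3, 7.39, 8.08, 22.5 and 11.2 CPM, a change of -0.99 ± 0.26 (adjusted p = 0.00386). The changes in soleus, -0.20 ± 0.26, and vastus lateralis, 0.69 ± 0.42, did not pass (adjusted p = 0.507 and 0.148), and adult vastus lateralis libraries spread from 5.91 to 85.2 CPM.

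Of the network-forming collagens, found in vessel walls and the cornea, Col8a2 fell in every muscle (-2.64 ± 0.30, -3.58 ± 0.95, -2.43 ± 0.26 and -3.68 ± 0.52, largest adjusted p 0.00385, edgeR), with medians of 29.5, 15.2, 14.2 and 25.3 CPM and then 5.55, 0.626, 2.13 and 1.09 CPM. Col8a1 read 11.6, 19.3 and 34.5 CPM in E18.5 and 28.8, 32.7 and 38.7 in adult soleus, 7.58, 16.2 and 31.3 and 4.73, 9.27 and 15.9 in gastrocnemius, 1.54, 2.24 and 4.48 and 3.52, 6.699 and 8.26 in vastus lateralis, and 2.85, 5.48 and 44.5 and then 19.8, 31, 32.5, 15.5 and 23.5 in vastus intermedius. It rose in vastus lateralis (1.27 ± 0.29, adjusted p = 0.000854, edgeR) and fell in gastrocnemius (-0.78 ± 0.33, adjusted p = 0.0397). Both calls are weak: with library totals the first became 0.23 (adjusted p = 0.47), and the second was lost with DESeq2 and without any of 8 of the 12 animals in turn (adjusted p up to 0.14). The changes in soleus, 0.59 ± 0.26, and vastus intermedius, 0.98 ± 0.60, did not pass (adjusted p = 0.0529 and 0.15).

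The membrane-spanning collagens, which sit in the plasma membrane of epithelial cells, neurons and the neuromuscular junction, fell in 4 of 4 members in each muscle. Col17a1 and Col25a1 among them met the member limit through libraries other than the adult ones used. Col25a1, which developing muscle fibres need for motor innervation, had medians of 15.4, 11.2, 16.6 and 9.81 CPM at E18.5 and 0.468, 1.12, 0.147 and 0.0563 CPM in adults, and changed by -5.36 ± 0.30, -3.42 ± 0.25, -6.33 ± 0.38 and -6.53 ± 0.50 (largest adjusted p 2.99e-08, edgeR). Col23a1 changed by -2.85 ± 0.11, -3.39 ± 0.31, -4.35 ± 0.30 and -4.70 ± 0.25, with medians of 117, 88.2, 71.1 and 70.3 CPM and then 15.9, 8.31, 3.59 and 2.595 CPM. Col13a1, a component of the neuromuscular junction, changed by -2.26 ± 0.23, -1.47 ± 0.31, -1.85 ± 0.22 and -1.98 ± 0.29 and Col17a1 by -3.04 ± 0.24, -3.28 ± 0.32, -3.05 ± 0.34 and -3.96 ± 0.38, with medians of 12.8, 5.45, 9.89 and 6.12 and then 2.78, 1.81, 2.88 and 1.93 CPM and of 7.299, 9.94, 6.36 and 11.9 and then 0.829, 0.613, 0.703 and 0.783 CPM. Col26a1 fell furthest of the 40 genes in soleus, vastus intermedius and gastrocnemius: -6.11 ± 0.26, -7.09 ± 0.47, -7.06 ± 0.29 and -6.56 ± 0.32 (largest adjusted p 1.04e-08, edgeR), from medians of 60.9, 59.2, 58.4 and 73.7 CPM to 1.04, 0.223, 0.392 and 0.675 CPM. It too met the member limit through libraries other than the adult ones used.

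The classes thus held different shares of the collagen counts at the stages. Fibrillar genes took 66.2%, 63.3%, 63.3% and 64.0% of them at E18.5 and 56.7%, 52.0%, 53.3% and 54.2% in adults. Basement membrane genes took 9.76%, 11.9%, 11.2% and 11.6% and then 17.8%, 23.8%, 20.3% and 20.4%. Multiplexins went from 2.04%, 2.35%, 1.91% and 2.11% to 4.46%, 4.98%, 4.69% and 4.66%, while microfibril-forming genes held 14.7% to 16.3% in all 8 groups. The lowest adult multiplexin share, 3.499%, lay above the highest E18.5 share, 2.98%.

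Among adult muscles, more collagen genes were higher than lower in slow-biased muscles. Of 39 genes tested, 21 were called higher and 5 lower in soleus and vastus intermedius than in gastrocnemius and vastus lateralis, where 66% of 14304 genes were called, 35.9% higher and 30.1% lower. The median was 0.42 for the collagens and 0.077 for all genes. Library totals as scaling moved the median of all genes to 0.41 and the collagens with it, Col5a2 from 0.63 to 0.97 and Col4a1 from 0.54 to 0.87, and 25 collagens were then called higher and 5 lower. The shares of all genes called with library totals are not given here, so the added calls may only follow the general shift. The 5 lower genes were Col19a1, Col7a1, Col6a5, Col6a6 and Col4a4. By class, 6 of 11 fibrillar, 2 of 5 basement membrane, 4 of 6 microfibril-forming, 4 of 7 fibril-associated and both multiplexin genes were higher. Fibroblast markers (6 of 7 higher, summed 372 to 671 CPM in slow-biased and 205 to 419 CPM in fast-biased libraries), endothelial (6 of 6), pericyte and smooth muscle (5 of 5), Schwann (5 of 5), leukocyte (5 of 5) and tendon markers (3 of 5) were higher too, with none lower in these lists. Cartilage markers (2 of the 2 tested) were higher as well and summed to 5.76 to 35.2 CPM in slow-biased against 1.63 to 5.63 CPM in fast-biased libraries. Muscle fibre markers (1 higher and 4 lower of 5) summed to 81870 to 113820 against 120326 to 211828 CPM. Neither list overlapped between the groups. In contrast, summed adipocyte markers had medians of 92.3, 7.81, 51.6 and 92.9 CPM. Medians were 304, 155, 208 and 230 CPM for neuromuscular junction markers and 3.61, 4.79, 3.79 and 8.74 CPM for bone markers. None of these last lists was higher in both slow-biased muscles than in both fast-biased ones. The part of any marker list in the collagen differences was not tested.

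Col19a1, a fibril-associated collagen known from developing muscle, had the largest difference of the 39 in size. It read 0.105, 0.397 and 1.51 CPM in soleus, 1.38, 0.717, 1.503, 3.35 and 0.948 in the 5 vastus intermedius libraries, 3.46, 6.22 and 8.203 in gastrocnemius and 7.54, 9.92 and 15.2 in vastus lateralis. Every slow-biased library lay below every fast-biased one, with a difference of -2.96 ± 0.30 (adjusted p = 7.94e-09, edgeR). How many of all genes separate the libraries in this way was not taken. Col7a1 differed by -2.21 ± 0.32 (adjusted p = 1.73e-06), though its libraries overlapped, and Col4a4 by -0.79 ± 0.13 (adjusted p = 1.24e-05).

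Col6a5 read 0.3496, 0.802 and 1.597 CPM in soleus, 1.97, 1.103, 0.689, 0.437 and 1.12 in vastus intermedius, 0.309, 2.56 and 3.35 in gastrocnemius and 3.604, 7.66 and 12.1 in vastus lateralis. Its difference was -2.02 ± 0.32 (adjusted p = 6.47e-06, edgeR), and vastus lateralis stood above the slow-biased muscles without overlap. Col6a6, its neighbour, read 8.29, 9.51 and 12.1, then 20.9, 15.8, 10.4, 20.5 and 15.8, 6.06, 21.1 and 27.7 and 17.4, 31.9 and 40.1 CPM in that order and differed by -0.94 ± 0.18 (adjusted p = 7.06e-05). The main collagen VI chains went the other way, with Col6a1 at 0.49 ± 0.12, Col6a2 at 0.37 ± 0.13 and Col6a3 at 0.42 ± 0.13, all called.

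**Figure D3:**
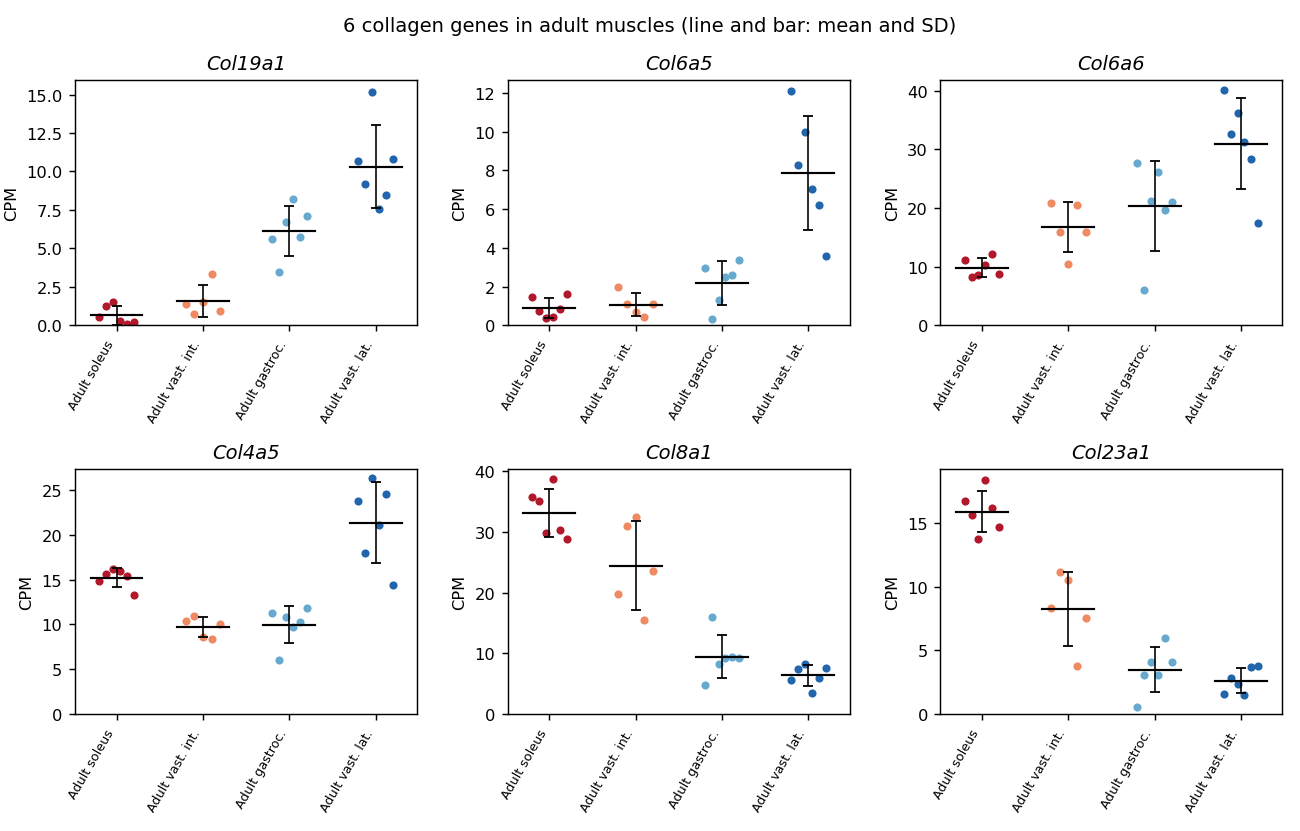
Level (y axis, CPM) of Col19a1, Col6a5, Col6a6, Col4a5, Col8a1 and Col23a1 in each adult library, with the mean and SD of each muscle (x axis; 6 libraries each, 5 in vastus intermedius). Col19a1 is lower and Col8a1 and Col23a1 have higher means in soleus and vastus intermedius, and Col4a5 is highest in vastus lateralis.

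On the higher side, Col8a1 read 28.8, 32.7 and 38.7 CPM in soleus and 19.8, 31, 32.5, 15.5 and 23.5 in vastus intermedius against 4.73, 9.27 and 15.9 in gastrocnemius and 3.52, 6.699 and 8.26 in vastus lateralis, a difference of 1.89 ± 0.16 (adjusted p = 2.91e-10, edgeR). Col23a1, with 13.8, 15.9 and 18.4, then 8.31, 11.1, 10.5, 3.79 and 7.58, 0.565, 3.59 and 5.95 and 1.51, 2.595 and 3.75 CPM in the same order, differed by 1.95 ± 0.23 (adjusted p = 8.04e-08). Col25a1, a gene under 2 CPM in all adult libraries used, differed by 2.19 ± 0.47 (adjusted p = 0.000261, edgeR). Col14a1, the one collagen gene whose slow-biased libraries all lay above all fast-biased ones, differed by 1.49 ± 0.23, Col16a1 by 1.01 ± 0.14, Col4a1 by 0.54 ± 0.10 and Col4a2 by 0.51 ± 0.091, all called with adjusted p of at most 7.06e-05. The share of all genes without such overlap was not taken. Collagen I did not pass, with Col1a1 at 0.36 ± 0.23 (adjusted p = 0.179) and Col1a2 at 0.41 ± 0.20 (adjusted p = 0.0781).

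Several of the higher calls rest on 1 animal. Without adult animal C, 14 genes were higher and 5 lower, and Col11a1 went from 1.88 to 0.42 (adjusted p = 0.58, edgeR), Col2a1 from 1.48 to 0.89 (adjusted p = 0.20) and Col12a1 from 1.06 to 0.52 (adjusted p = 0.15). Col3a1, Col6a2, Col11a2 and Col28a1 also lost their calls. Col3a1 was not called without animal E either, nor Col2a1 without animal B, nor Col28a1 without A, D or F. The vastus intermedius library of animal C had the highest level in its group of Col1a1, Col12a1, Col11a1 and Col2a1, and its summed tendon markers were 528 CPM against 37.3 to 47.5 CPM in the other 4. Whether the one bears on the other was not tested.

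In both adult muscle pairs 14 genes were called in the same direction, of which 7 were called in both whichever animal was left out. The share of all genes called alike in both pairs was not taken. In the single pairs 53.5% (soleus and gastrocnemius) and 52.2% (the vasti) of all genes were called. Soleus against gastrocnemius gave 13 higher and 5 lower (27.7% and 25.9% of all genes), which became 23 and 3 with library totals, and vastus intermedius against vastus lateralis gave 14 and 6 (27.9% and 24.3%). Shares of all genes with library totals are not given. Higher in both pairs were Col5a1, Col5a2, Col6a1, Col14a1, Col15a1, Col16a1, Col18a1, Col23a1 and Col8a1. Lower in both were Col19a1, Col7a1, Col6a5, Col6a6 and Col4a4. The 7 genes that did not depend on 1 animal were Col14a1, Col16a1, Col23a1, Col8a1, Col19a1, Col7a1 and Col6a6. Without adult animal C, the vastus pair lost Col5a1 (0.44, adjusted p = 0.13), Col5a2 (0.33, adjusted p = 0.22) and Col6a1 (0.29, adjusted p = 0.235). The soleus pair then lost Col15a1 (0.32, adjusted p = 0.137), Col18a1 (0.39, adjusted p = 0.0796), Col4a4 (-0.40, adjusted p = 0.118) and Col6a5 (-1.17, adjusted p = 0.0531, edgeR). Of these 7, all but Col18a1 also lost the call without at least 1 other animal. With library totals Col4a4 was -0.11 in the soleus pair (adjusted p = 0.633), Col6a5 was not called there, and Col6a6 was not called in the vastus pair. Col19a1 differed by -3.22 ± 0.43 and -2.71 ± 0.43, Col7a1 by -2.60 ± 0.44 and -1.82 ± 0.46, and Col8a1 by 1.83 ± 0.22 and 1.95 ± 0.23. Col25a1 was called in the vastus pair (3.34 ± 0.69) and not in the shank pair (1.04 ± 0.63), and the difference between the pairs, -2.30 ± 0.96, did not pass (adjusted p = 0.158, edgeR).

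One gene was called for the difference between the pairs, against 8.1% of all genes (1.94% higher and 6.16% lower). Col4a5 was higher in soleus than in gastrocnemius (0.64 ± 0.15, adjusted p = 0.000763) and lower in vastus intermedius than in vastus lateralis (-1.11 ± 0.15, adjusted p = 2.29e-06), and the pairs differed by 1.75 ± 0.21 (adjusted p = 1.54e-05, edgeR). Its vastus lateralis libraries, 14.4 to 26.4 CPM, lay above all gastrocnemius libraries, which reached 11.8 CPM. With the animal as a block, Col4a2 was called as well (-0.49 ± 0.12, adjusted p = 0.013).

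**Figure D4:**
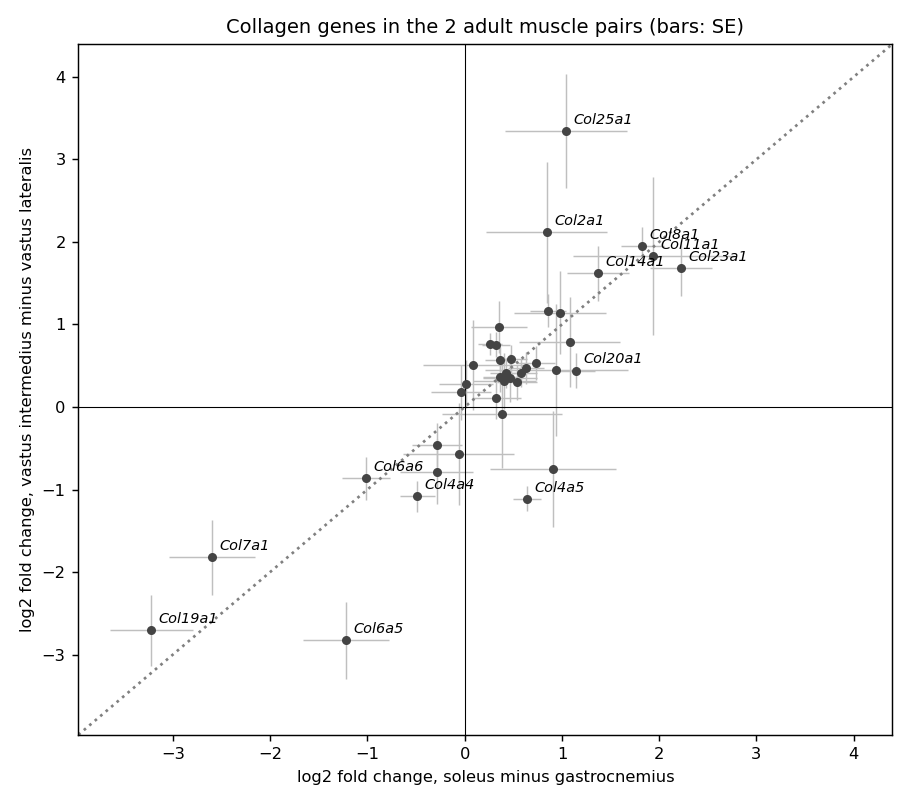
Log2 fold change of each collagen gene between soleus and gastrocnemius (x axis) and between vastus intermedius and vastus lateralis (y axis) in adults, with SE bars and a dotted line where the 2 are equal. Most genes have the same sign in both pairs, and Col4a5 lies right of 0 and below 0, at 0.64 and -1.11.

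Fewer collagen genes separated thigh from shank. In adults 3 of 39 were called higher in the thigh and 7 lower (11.6% and 7.55% of all genes): Col6a5 (1.06 ± 0.32), Col19a1 (1.02 ± 0.29) and Col6a6 (0.70 ± 0.18) were higher. Col2a1 (-2.24 ± 0.53), Col11a1 (-2.04 ± 0.64) and Col22a1 (-1.31 ± 0.43) were lower with Col11a2, Col23a1, Col16a1 and Col8a1. Tendon markers (3 of 5 lower, none higher) summed to 12.7 to 98.6 CPM in the thigh apart from vastus intermedius of animal C at 528, and to 122 to 349.5 CPM in the shank apart from soleus of animal D at 41.7. Cartilage markers summed to 15.6 to 35.2 CPM in soleus, 5.76 to 13.2 in vastus intermedius, 1.63 to 4.55 in gastrocnemius and 1.98 to 5.63 in vastus lateralis. Their part in these differences was not tested. The count is unsteady: it was 5, 6, 4 and 6 without adult animal A, B, E or F. Col6a6, Col2a1 and Col16a1 were called whichever animal was left out, though Col2a1 had only 12 counts over the 6 adult vastus lateralis libraries. At E18.5, 4 were higher in the thigh and 6 lower (14.1% and 10.7% of 15751 genes), which became 3 and 11 with library totals. Shares of all genes under that scaling are not given.

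At E18.5 the thigh had more Col6a5 (1.42 ± 0.20, adjusted p = 2.44e-05), Col7a1 (0.98 ± 0.17, adjusted p = 0.000188), Col17a1 (0.64 ± 0.13) and Col6a6 (0.37 ± 0.11). Col6a5 read 3.201, 6.36 and 7.73 CPM in soleus and 5.67, 10.9 and 12.3 in gastrocnemius against 12.7, 15.5 and 31.9 in vastus intermedius and 9.51, 21.5 and 38.9 in vastus lateralis. The thigh had less Col8a1 (-1.71 ± 0.38, adjusted p = 0.00175), Col11a2 (-0.93 ± 0.30), Col13a1 (-0.87 ± 0.16), Col25a1 (-0.82 ± 0.17), Col22a1 (-0.76 ± 0.19) and Col4a5 (-0.36 ± 0.13). Col6a5 and Col6a6 were thus called higher in the thigh, and Col8a1, Col11a2 and Col22a1 lower, at both stages. The share of all genes called alike at both stages was not taken. In adults Col6a5 lost its call without animal A or C, Col8a1 without B, D, E or F, Col11a2 without A, B or E and Col22a1 without A, E or F. At E18.5 Col11a2 lost its call without animal C or E, Col4a5 without A, B, E or F, and Col6a6 without A or E and with library totals.

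Before birth no collagen gene was called between slow-biased and fast-biased muscles by edgeR without the animal as a block, among 39 tested, where 0.368% of all genes were called. Each embryo gave all 4 muscles, and with the animal as a block edgeR called Col9a2 (0.63 ± 0.16, adjusted p = 0.0494) and Col6a6 (-0.42 ± 0.10, adjusted p = 0.0437). An unadjusted p under 0.05 (edgeR, no block) was reached by 12 of the 39, against 1738 of all 15751 genes. DESeq2 called 4: Col23a1 (0.54), Col8a1 (1.34) and Col9a2 (0.67) higher and Col6a6 (-0.42) lower. The soleus pair gave 0 calls (0.286% of all genes) and 1 by DESeq2. There 11 genes had an unadjusted p under 0.05, against 1351 of all genes. The vastus pair gave 0 (0.0317% of all genes, 0.00635% higher and 0.0254% lower) and 1 by DESeq2. There 4 genes had an unadjusted p under 0.05, against 1013 of all genes. The share of all genes called by DESeq2 or with the block is not given here. Col19a1 was 0.361, 6.34 and 13.99 CPM in E18.5 soleus, 1.34, 14.8 and 36.8 in vastus intermedius, 18.49, 23.5 and 39.3 in gastrocnemius and 9.76, 32.5 and 36.2 in vastus lateralis, a difference of -1.32 ± 0.38 that did not pass (adjusted p = 0.123, edgeR). Without E18.5 animal B it was -1.51 ± 0.32 (adjusted p = 0.021), one of 3 genes then called.

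The slow-to-fast difference itself changed with stage for 20 of the 40 genes, 14 upward and 6 downward (26.6% and 24.2% of 16402 genes, 50.8% in all), or 21 and 4 with library totals. For library totals the shares of all genes are not given. Downward were Col7a1 (-2.04 ± 0.37, adjusted p = 9.07e-06), Col19a1 (-1.70 ± 0.54), Col6a5 (-1.58 ± 0.37), Col4a4 (-1.19 ± 0.28), Col4a5 (-0.62 ± 0.18) and Col6a6 (-0.55 ± 0.21). Upward were, with the largest differences, Col25a1 (2.01 ± 0.44, adjusted p = 0.000193, edgeR), Col14a1 (1.66 ± 0.28), Col23a1 (1.38 ± 0.26), Col12a1 (0.98 ± 0.36) and Col16a1 (0.86 ± 0.17). Col12a1 lost its call without adult animal C, and Col6a6 without adult animal A, C or D or E18.5 animal B. With library totals Col6a6 and Col4a5 lost theirs. Of the smaller upward differences, those of Col3a1, Col6a2 and Col6a3 each lost the call without any of several animals in turn. Col8a1 did not pass (0.51 ± 0.43, adjusted p = 0.336, edgeR), its difference being 1.35 ± 0.38 at E18.5 and 1.89 ± 0.16 in adults.

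**Figure D5:**
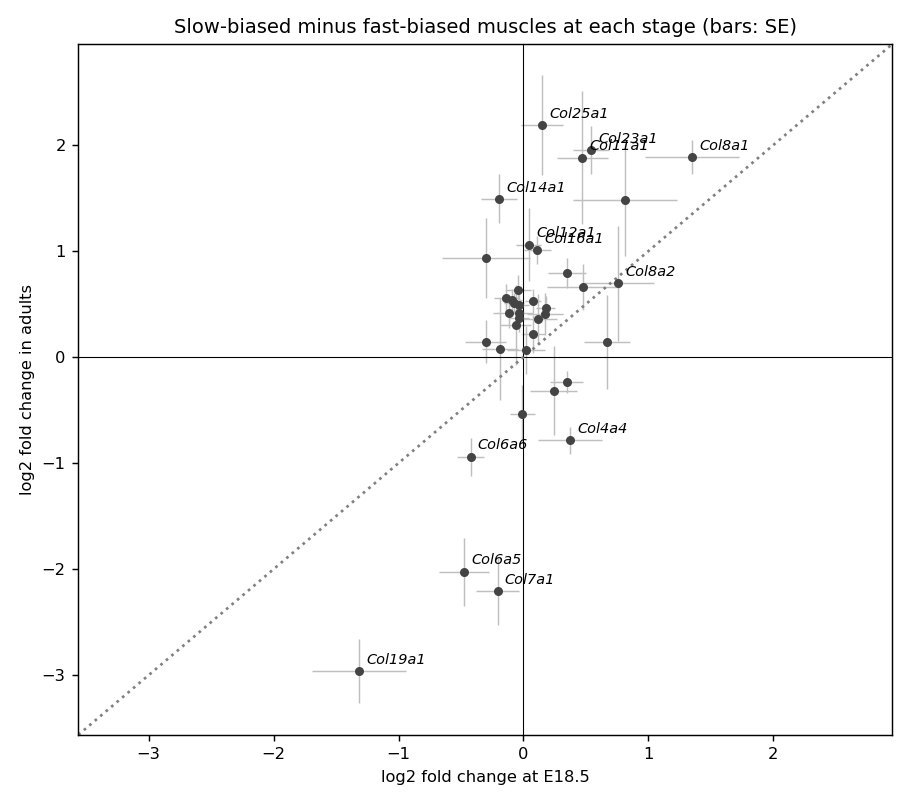
Log2 fold change between slow-biased and fast-biased muscles of each collagen gene at E18.5 (x axis) and in adults (y axis), with SE bars and a dotted line where the 2 are equal. The points spread further on the y axis, where Col19a1, Col7a1 and Col6a5 lie below -2 and Col25a1 above 2.

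The genes that process, cross-link, bind and break down collagen mostly fell with age as well. Of 74 such genes, 12 rose and 49 fell in soleus (72 tested), where 36.3% of all genes rose and 39.7% fell. In vastus intermedius 9 rose and 52 fell (72 tested; 36.9% and 39.2% of all genes), in gastrocnemius 12 and 57 (71; 38.2% and 44%) and in vastus lateralis 8 and 54 (70; 36.4% and 42.6%). The same shares of all genes stand behind each count of a smaller list below. Among the enzymes and chaperones of chain modification, 16, 18, 19 and 18 of 20 fell. P4ha3, a prolyl hydroxylase subunit, changed by -5.63, -5.33, -7.76 and -8.10, and Plod2, the telopeptide lysyl hydroxylase, changed by -3.20, -3.39, -4.57 and -4.71 (largest adjusted p 1.14e-06 and 7.12e-10, edgeR). Mia3, which loads procollagen into export carriers, was the one gene of this list to rise, by 0.56, 0.83, 1.34 and 1.37 (largest adjusted p 3.85e-06, edgeR). Its rises in soleus and vastus intermedius were about as large as the shift in the median of all genes under library totals. They may therefore depend on the TMM scaling.

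Among genes of procollagen trimming, 6, 6, 6 and 5 fell: Adamts14, an N-propeptidase, changed by -4.15, -3.89, -4.66 and -4.42, while Pcolce2, an enhancer of C-propeptide removal, rose by 1.435, 3.14, 2.66 and 2.42. Of the cross-linking enzymes, Lox changed by -3.47, -3.01, -3.40 and -2.72 and Pxdn, which cross-links collagen IV, by -2.64, -2.68, -3.07 and -2.89. Of breakdown genes, Mmp16 changed by -4.61, -4.87, -5.09 and -5.03, and Timp4, a metalloproteinase inhibitor, rose by 5.04, 4.84, 5.04 and 4.10. The largest adjusted p of these 6 genes was 0.000534 for Pcolce2 (edgeR).

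Of the collagen receptors, Itga2 changed by -2.33, -2.72, -2.94 and -3.31, and Itga11, a receptor of fibrillar collagen, rose in soleus (1.23 ± 0.23), vastus intermedius (1.40 ± 0.28) and gastrocnemius (1.53 ± 0.24). Of the fibril partners, Prelp rose by 3.08, 1.62, 2.44 and 1.06, and Bgn, the proteoglycan biglycan, changed by -1.439 ± 0.16 in soleus and -2.75 ± 0.20 in vastus lateralis. Among basement membrane partners Lamb1 changed by -2.57, -2.59, -3.05 and -3.09 and Nid2 by -2.57, -2.90, -3.04 and -3.41. Lamb2, the laminin chain of synapses and vessels, was called higher by 0.71, 0.53, 0.78 and 0.81. These Lamb2 values, and that of Prelp in vastus lateralis, were about as large as the shift in the median of all genes under library totals. They may therefore depend on the TMM scaling.

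In adults 47 of 72 of these genes were higher and 7 lower in slow-biased muscles, where 35.9% of all genes were called higher and 30.1% lower. P4ha3 (2.72 ± 0.59), P3h2 (2.67 ± 0.24), Tll2 (3.39 ± 0.81), Bgn (1.39 ± 0.15), Timp1 (1.56 ± 0.40) and Lama4 (0.88 ± 0.083) were higher. Mia3 (-0.66 ± 0.056), P4ha1 (-0.65 ± 0.14), Mmp15 (-0.90 ± 0.071) and Mmp9 (-0.75 ± 0.31) were lower.

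The headers of the authors' deposited tables do not give the direction of the sign, so the directions stated here are a reading of it. On that reading, 21 of the 40 collagen genes were higher and 5 lower in adult slow-biased muscles, and 36 were higher and 2 lower at E18.5 than in adults in slow-biased muscles, with 35 and 3 in fast-biased ones. The 21 are not all the same genes as above: the authors' table called Col9a3, which was not tested here, and did not call Col2a1. At E18.5, 2 genes were called higher in slow-biased muscles and none lower in the authors' deposited table. For adult thigh against shank, the authors' deposited table called 1 gene, lower in the thigh. The share of all genes called in the authors' tables was not taken, so these counts have no background beside them.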

How the data were processed

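RNA of 4 hindlimb muscles at 2 stages was measured in 48 libraries, and 1 was left out. Per the submitters' processing notes, build mm10 was used, and the tools named are STAR 2.7.11, Subread 2.0.6, Trimmomatic 0.39.0, FastQC 0.11.5 and DESeq2 1.44.0. Annotation and strandedness were not given in the sources used here. The authors deposited raw counts per gene for all samples, and tables of their own comparisons with log2 fold changes and adjusted p-values.

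From the counts, each comparison was fitted over all genes with edgeR 4.0.16 (R 4.3.3, limma 3.58.1), with TMM scaling, filterByExpr, the quasi-likelihood F test and Benjamini-Hochberg adjustment at 0.05, which makes 14 comparisons from 7 fits. SE is the log2 fold change divided by the root of F. DESeq2 1.42.0 was an alternative, beside library totals as scaling, no filter, the left-out library put back, the animal as a block, and each animal left out. The fits were tested on simulated counts. No floor was applied to low counts, and 3 counts served only as the bound stated for a count of 0. Intervals cover counting error only.

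The collagen genes and the gene lists were chosen with earlier results of these data known. Values by group are given for called genes with the 4 highest levels of their class or among the 5 largest changes in a direction of a comparison. Of the genes that handle collagen, those named are among the 2 called genes with the largest change in each direction per sub-list. The libraries of a group come from separate animals per the labels. Muscles of 1 animal were paired by the tag in the column names: the mean correlation of their deviations from the group means was 0.0945 in adults and 0.188 at E18.5, against -0.0192 and -0.0372 between animals. No pair of libraries agreed within sampling noise (lowest chi-square per degree of freedom 10.8 over 120 pairs). Symbols came from the deposited tables for 18780 genes and from RefSeq for 6501, and 1898 had none.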

Additional observations from a re-analysis of the deposited data

Results flagged for a closer look

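In 36 of 320 combinations of gene and group (11.2%), 1 library stood apart from the rest of its group by Dixon's test. Chance gives about 1 in 20 for independent, normally spread values. CPM need not be normal and genes of 1 library are not independent, so the 11.2% cannot be read as an excess. In adult vastus intermedius the library of animal C stood apart for 8 genes: Col1a1 (578 CPM), Col1a2 (628), Col5a2 (149.6), Col12a1 (61.1), Col11a1 (21.5), Col11a2 (15.6), Col8a2 (9.82) and Col2a1 (1.71). Its summed tendon markers were 528 CPM, against 37.3 to 47.5 CPM in the other 4 libraries. In adult gastrocnemius the library of animal A stood apart for 6: Col1a1 (668), Col12a1 (38.9), Col11a1 (12.2), Col11a2 (14.6), Col8a2 (5.86) and Col2a1 (2.40), with summed tendon markers of 272 CPM against 122 to 160 CPM in the other 5. In adult soleus the library of animal D, which stood apart for Col22a1 (2.28), had summed tendon markers of 41.7 CPM against 208 to 349.5 CPM in the other 5, and was also the lowest of its group for Col11a1 (0.272) and Col12a1 (9.77). The part of the tendon markers was not tested.

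At E18.5 the vastus intermedius library of animal F stood apart for Col12a1 (1353), Col11a1 (299), Col16a1 (157), Col8a2 (104) and Col8a1 (44.5). The soleus library of animal C did for Col1a2 (6589), Col6a3 (2519), Col6a2 (1712) and Col20a1 (62.8), and the gastrocnemius library of animal F for Col24a1 (18.53), Col25a1 (26.98) and Col9a3 (5.60). Single or paired flags were Col6a6 (6.06) and Col4a5 (6.00) in adult gastrocnemius of animal B, Col2a1 (0.536) and Col9a2 (0) in adult vastus lateralis of animal A, Col4a4 (6.78) in that of animal F, Col6a2 (213) in adult soleus of animal E, Col7a1 (22.5) in adult vastus intermedius of animal E, Col6a3 (2095) in E18.5 gastrocnemius of animal C and Col8a2 (44.4) in E18.5 soleus of animal F.

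Effects that differed between groups by a test of the difference itself (edgeR) were that of Col4a5 between the adult muscle pairs (1.75), and the slow-to-fast difference between the stages for 20 genes. These were Col3a1 (0.50), Col4a1 (0.60), Col6a3 (0.42), Col5a1 (0.66), Col6a2 (0.37), Col4a2 (0.55), Col6a1 (0.49), Col5a2 (0.64), Col12a1 (0.98), Col14a1 (1.66), Col6a6 (-0.55), Col18a1 (0.42), Col16a1 (0.86), Col23a1 (1.38), Col7a1 (-2.04), Col4a5 (-0.62), Col19a1 (-1.70), Col6a5 (-1.58), Col25a1 (2.01) and Col4a4 (-1.19), as log2 values. Col3a1, Col6a2, Col6a3, Col6a6 and Col12a1 lost this call in some fits that left out 1 animal. In the adult vastus intermedius library left out of the comparisons, collagens took 3.68% of the counts.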

How the results depend on the processing

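Of 257 calls of collagen genes, 219 were made in every fit that left out 1 animal. DESeq2 kept 251 and lost 3, and gave no adjusted p for the rest. Fits without the filter kept 253 and lost 4. Library totals kept 249, lost 7 and reversed Col4a5 in vastus lateralis between stages (-0.47). Putting the left-out library back concerns only the fits that hold adult vastus intermedius. Of the calls in those fits, 99 were kept and 30 lost, Col6a6 reversed in adult slow-biased against fast-biased muscles (0.11), vastus intermedius against lateralis (1.25) and the stage difference (0.50), soleus against gastrocnemius gave 6 genes and adult thigh against shank 3. Leaving out each animal gave 36 to 38 genes between stages in soleus, 37 to 39 in vastus intermedius, 38 to 40 in gastrocnemius and 36 to 38 in vastus lateralis. It gave 19 to 27 for adult slow against fast, 13 to 20 for soleus against gastrocnemius, 16 to 21 for vastus intermedius against lateralis, 4 to 12 for adult thigh against shank, 1 for the pair difference, 17 to 23 for the stage difference, and at E18.5 0 to 3, 0, 0 to 1 and 7 to 11 for slow against fast, the soleus pair, the vastus pair and thigh against shank. The cause of these shifts was not tested. Depth limits Col4a3 at E18.5, and Col4a3 at E18.5 and Col9a3 in adults were too low to be tested within their stage.

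The animal as a replicate block was not fitted to the comparisons of the stages within a muscle. In the other comparisons, 102 calls were kept and 3 lost: Col23a1 in adult thigh against shank (adjusted p = 0.0625, edgeR), Col28a1 in adult slow against fast (0.0655) and Col6a1 in vastus intermedius against lateralis (0.0588). The block gave 2 genes for the pair difference and 23 for the stage difference. At E18.5 it gave 2 for slow against fast, Col9a2 (0.63) and Col6a6 (-0.42). DESeq2 gave 4, 1 and 1 genes for the E18.5 slow against fast, soleus pair and vastus pair comparisons.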
